A study of Mus musculus with 12 samples.

Results

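The JAK-STAT pathway carries signals of cytokines and growth factors from the cell surface to the nucleus. A ligand brings receptor chains together, and Janus kinases (JAKs) bound to the chains phosphorylate them and then the STAT transcription factors, which pair and enter the nucleus. STAT target genes include the inhibitor Socs3, which shuts the receptor complex off, so its transcript is widely used as a readout of recent signalling. In testis STAT3 is known for promoting the differentiation of spermatogonial stem cells, and JAK2 is also known to phosphorylate histone H3 in the nucleus.

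Transcripts of 10 genes of this pathway were described: the receptor chains Il6st and Osmr, the kinases Jak1, Jak2 and Tyk2, the transcription factors Stat3, Stat5a and Stat5b, the feedback inhibitor Socs3 and the target gene Pim1. They were taken by gene name from 24711 named rows of the GC2 libraries and 36823 named rows of the spermatocyte libraries. Each of the 10 stood on 1 row of its own in both kinds of sample. All 10 passed the filter on low values in GC2 cells and 9 in spermatocytes, where Osmr was below it.

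The 12 mouse RNA-seq libraries form 4 groups of 3. GC2 is an immortalised mouse spermatocyte line obtained from ATCC, and it was profiled as Control and as PHB Knockdown cells. Spermatocytes were profiled with the genotypes Control and Phb knock-out, the latter being a conditional allele, after enzymatic digestion of seminiferous tubules and sorting on a Hoechst stain. Phb encodes prohibitin, a scaffold protein of the inner mitochondrial membrane. The labels state neither the knockdown method nor the Cre driver, the animals' ages or any pooling of animals. Each group's libraries are described as biological replicates, but no culture or animal is named, so the p-values reflect only the spread among libraries, which may be technical.

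Levels are FPKM, which divides fragments by transcript length and by library size, so genes can be ranked within a library. Changes are differences of log2(FPKM + 1), knockdown or knock-out (depleted in the plots, going by the labels) minus control, which understate the change of low genes. They were tested with limma over all rows that reached 1 FPKM in 3 or more of a contrast's 6 libraries. Calls were made at an adjusted p (Benjamini-Hochberg, over all tested rows) under 0.05. Summed FPKM ranged from 194949 to 206711 in GC2 libraries and from 289707 to 297362 in spermatocyte libraries. The GC2 and spermatocyte contrasts were tested apart. Only their difference, and 1 alternative, used 1 fit of all 12 libraries, in which both kinds of sample share 1 variance per gene. Levels were not compared between GC2 and spermatocyte tables.

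Phb itself fell by 1.40 on the log2 scale in knockdown GC2 cells (SE 0.090, adjusted p = 0.00062). In the libraries labelled Phb knock-out the difference was -0.18 (SE 0.042, adjusted p = 0.0074), and this small fall depends on the scaling. It was -0.07 with quantile normalization (adjusted p = 0.17), -0.02 with median centring (adjusted p = 0.63), -0.10 with mitochondrial rows removed (adjusted p = 0.082) and 0.068 with chromosome centring, a setting added after the data were seen (adjusted p = 0.16). In spermatocytes the levels were a mean of 13.3 ± 0.634 FPKM in control and 11.6 ± 0.241 in knock-out libraries (SD, n = 3). Several marker lists of testis cell types differed far more between the spermatocyte groups. The summed FPKM of the pachytene and diplotene list was 2676 to 2731 in control and 74.6 to 76.8 in knock-out libraries, and that of the spermatid list was 1062 to 1104 and 13.85 to 17.4. The Sertoli cell sum was 1199 to 1296 in control and 5052 to 5229.5 in knock-out libraries, and the Leydig cell sum 72.8 to 75.4 and 516 to 535. Of 24 Sertoli markers tested 22 were higher in knock-out, as were 10 of 10 Leydig markers and 10 of 12 macrophage and immune markers. The macrophage and immune sum was 35.45 to 45.0 in control and 48.97 to 52.8 in knock-out libraries. The peritubular myoid and endothelial sum was 50.4 to 51.4 in control and 74.7 to 76.3 in knock-out libraries. Of its 12 markers tested 10 were higher and 1 lower. All 16 pachytene and all 18 spermatid markers tested were lower. Of all tested spermatocyte rows 40.9% were higher and 38.5% lower. The 18 spermatid genes together reached at most 17.4 FPKM in a knock-out library. Some may thus have passed the filter on low values only through the control group, which would fix their direction. How many markers of any list did so was not counted. Lists of earlier stages shifted less. Of 13 spermatogonium markers 2 were higher and 7 lower (median change -0.12). Their sum was 523 to 552 FPKM in control and 322 to 332 in knock-out libraries. Dmrtb1, the most abundant of them, averaged 238 FPKM in control and 6.32 in knock-out libraries. Of 14 leptotene and zygotene markers 3 were higher and 10 lower (median change -0.21), with a sum of 548 to 580 FPKM in control and 421 to 426 in knock-out libraries. In bulk libraries, fewer cells of a type and less RNA per cell cannot be told apart. In the GC2 line the markers of its labelled cell type were scarce: the leptotene and zygotene sum was 0.98 to 1.63 FPKM in control libraries, and the pachytene and diplotene sum of 16.6 to 18.3 came mostly from Tbpl1 at 13.2 FPKM. Between the GC2 groups the peritubular myoid and endothelial sum was 107 to 115 FPKM in control and 25.3 to 35.3 in knockdown libraries, mostly through Acta2 (93.8 and 16.8 FPKM), and the spermatogonium sum was 29.3 to 35.4 and 47.1 to 59.5, mostly through Uchl1. Their part in the GC2 results was not tested.

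**Figure D1:**
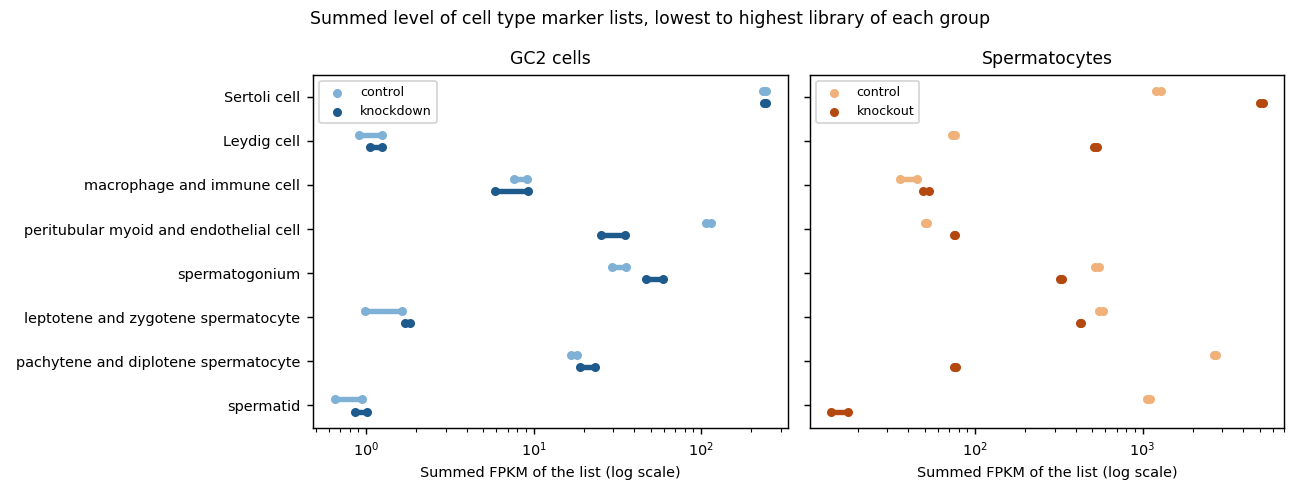
Summed FPKM of 8 cell type marker lists on a log axis, each line running from the lowest to the highest of 3 libraries, for GC2 cells and spermatocytes. The Sertoli and Leydig sums lie higher, and the pachytene and spermatid sums lower, in the 3 knock-out spermatocyte libraries.

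In spermatocytes 8 of the 9 tested genes were higher in knock-out libraries and 1, Tyk2, was lower. In GC2 cells Jak1 and Pim1 were higher in knockdown libraries, Jak2 and Osmr were lower, and 6 of 10 were not called. The background was 40.9% of all tested rows higher and 38.5% lower in spermatocytes. It was 10.7% higher and 13.9% lower in GC2 cells, and in either direction 79.4% in spermatocytes and 24.5% in GC2 cells. The median change of the 9 genes in spermatocytes was 0.90 against 0.047 for all rows, and that of the 10 genes in GC2 cells was -0.01 against -0.04. In spermatocytes 3 genes passed 2-fold upward on the log2 scale, where 11.6% of rows did, and in GC2 cells 2 passed 2-fold downward, where 2.21% of rows did, and 0 upward, where 1.3% did. The 3 libraries of both groups did not overlap for 10 of 10 genes in spermatocytes, 9 higher (42.2% of rows) and 1 lower (39.6% of rows, 81.8% in either direction). In GC2 cells they did not overlap for 7 of 10, 3 higher (19.6% of rows) and 4 lower (25.3% of rows, 44.9% in either direction).

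**Figure D2:**
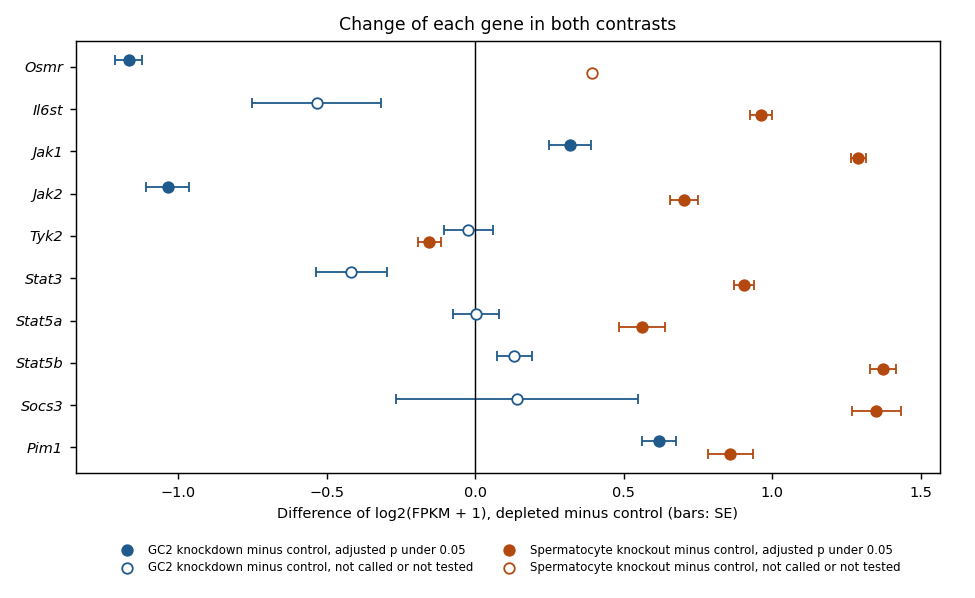
Difference of log2(FPKM + 1), depleted minus control, for each of the 10 genes in GC2 cells and spermatocytes, with bars for the SE. Filled points were called at an adjusted p under 0.05, and open points were not called or not tested. In spermatocytes every gene but Tyk2 lies to the right of 0, while in GC2 cells Osmr (-1.17) and Jak2 (-1.04) lie farthest to the left.

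In GRCm38 with GENCODE M21 annotation, Stat5b (chr11:100780731-100850724, minus strand), Stat5a (chr11:100859351-100885169, plus strand) and Stat3 (chr11:100885098-100939540, minus strand) form 1 cluster, and Socs3 (chr11:117966079-117970047, minus strand) lies elsewhere on chromosome 11. Jak1 is at chr4:101152367-101265282 (minus strand), Jak2 at chr19:29251828-29313080 (plus strand) and Tyk2 at chr9:21104068-21131243 (minus strand). Osmr is at chr15:6813577-6874969 (minus strand), Il6st at chr13:112464070-112510086 (plus strand) and Pim1 at chr17:29490753-29496112 (plus strand). FPKM is a value for the whole gene row. Genes on the opposite strand overlap Jak1 (Raver2), Tyk2 (1700084C06Rik) and Pim1 (Gm26885), and the sources used here do not say whether strand was used in counting. The GC2 rows of Jak1, Jak2, Tyk2, Stat5a, Stat5b and Osmr also hold transcripts assembled from reads, which the spermatocyte rows do not.

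The receptor chains come first. Il6st encodes the signalling chain shared by the receptors of the interleukin-6 family. Osmr pairs with it in the receptor of oncostatin M. In control GC2 libraries Osmr was at 11.23, 10.91 and 11.17 FPKM, and in knockdown libraries at 4.49, 4.39 and 4.29. The groups were far apart and Osmr fell by 1.17 on the log2 scale (SE 0.045, adjusted p = 0.00013), to 0.395 of the control FPKM. On its chromosome, 15, the median change in GC2 cells was -0.18, with 23 rows higher and 100 lower of 439. Relative to the median of its chromosome, a setting added after the data were seen, Osmr was at -0.95 (adjusted p = 0.0013). In spermatocytes Osmr was near the floor of the data, with 0.19, 0.19 and 0.14 FPKM in control and 0.52, 0.57 and 0.53 in knock-out libraries. These values stand for an estimated 12.1 to 15.3 fragments in control and 34.7 to 43.9 in knock-out libraries, and the gene was not tested. Its groups did not overlap.

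Il6st stood at 16.47, 15.34 and 15.77 FPKM in control GC2 libraries and at 13.18, 12.38 and 7.31 in knockdown libraries. All 3 knockdown libraries were below all controls, with knockdown library 3 the lowest. The difference of -0.53 was not called (SE 0.22, adjusted p = 0.14), and without that library it was -0.29 with an adjusted p of 0.048. Leaving out any other GC2 library did not give a call (adjusted p 0.11 to 0.27). In spermatocytes Il6st was at 4.6, 4.5 and 4.73 FPKM in control and at 10.01, 9.73 and 10.05 in knock-out libraries. It rose by 0.96 (SE 0.036, adjusted p = 1.4e-06), 2.15-fold in FPKM, and its 3 libraries per group lay within a narrow range.

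Of the 3 kinases, Jak1 serves most cytokine receptors that use Il6st. In control GC2 libraries Jak1 was at 26.80, 26.88 and 31.28 FPKM and in knockdown libraries at 34.90, 35.83 and 35.72. Groups did not overlap, though control library 3 stood apart from the other controls. Jak1 rose by 0.32 (SE 0.072, adjusted p = 0.030). On chromosome 4, where Jak1 lies, the median change in GC2 cells was 0.09, with 124 rows higher and 43 lower of 691. Relative to the median of its chromosome, a setting added after the data were seen, Jak1 was at 0.23 with an adjusted p of 0.14. The call also ended when any GC2 library other than control library 3 was left out (adjusted p 0.067 to 0.089). In spermatocytes Jak1 was at 19.86, 20.19 and 20.10 FPKM in control and at 50.60, 49.48 and 51.32 in knock-out libraries. It rose by 1.29 (SE 0.025, adjusted p = 8.5e-08), 2.52-fold in FPKM, and was the most abundant of the 10 genes in both spermatocyte groups.

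Jak2 serves the receptors of growth hormone, prolactin, erythropoietin and interferon gamma, among others. In control GC2 libraries it was at 50.50, 54.45 and 46.39 FPKM, the highest of the 10 genes, and in knockdown libraries at 24.15, 24.83 and 23.16. Every knockdown library was below every control, and Jak2 fell by 1.04 (SE 0.071, adjusted p = 0.00077), to 0.477 of the control FPKM, while the median change on its chromosome, 19, was -0.09. In spermatocytes Jak2 moved the other way, from 6.37, 6.39 and 6.43 FPKM in control to 10.30, 11.49 and 11.36 in knock-out libraries. It rose by 0.70 (SE 0.048, adjusted p = 2.2e-05), 1.73-fold in FPKM.

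Tyk2 encodes the kinase of type I interferon and interleukin-12 receptors. In GC2 cells it was at 2.0, 2.11 and 2.22 FPKM in control and 1.85, 2.35 and 2.0 in knockdown libraries, so the groups overlapped and the change was -0.02 (SE 0.082, adjusted p = 0.87). In spermatocytes it was at 7.83, 8.08 and 7.56 FPKM in control and 6.88, 7.08 and 6.82 in knock-out libraries, and it fell by 0.15 (SE 0.038, adjusted p = 0.010). Under median centring the difference was 0.0059, and under chromosome centring 0.043, so its direction depends on the scaling.

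**Figure D3:**
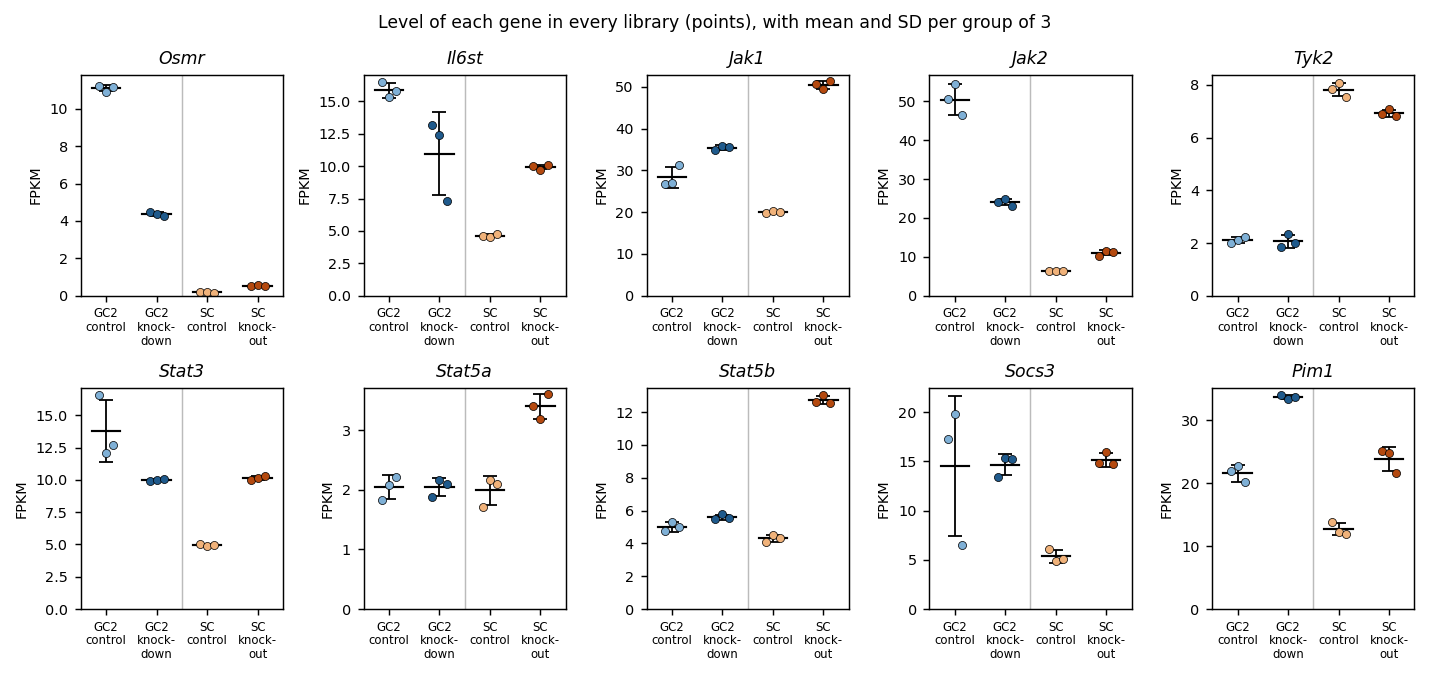
FPKM of each of the 10 genes in every library, as points, with the mean and SD of each group of 3, from control and knockdown GC2 cells to control and knock-out spermatocytes. Jak2 and Osmr lie lower in GC2 knockdown than in GC2 control, and most genes lie higher in knock-out than in control spermatocytes.

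Among the transcription factors, Stat3 answers to interleukin-6 family cytokines. In GC2 control libraries it was at 16.55, 12.10 and 12.74 FPKM and in knockdown libraries at 9.90, 10.03 and 10.04. Groups did not overlap, and control library 1 was the highest. The difference of -0.42 was not called (SE 0.12, adjusted p = 0.061), and without that library it was -0.29 with an adjusted p of 0.028. Leaving out any other GC2 library did not give a call (adjusted p 0.060 to 0.14). With chromosome centring, added after the data were seen, the difference was -0.22 (adjusted p = 0.31). In spermatocytes it went from 5.02, 4.87 and 4.98 FPKM to 10.01, 10.12 and 10.33 and rose by 0.90 (SE 0.033, adjusted p = 1.3e-06), 2.05-fold in FPKM.

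Stat5a and Stat5b are close copies that relay growth hormone, prolactin and other cytokine signals. In their longest transcripts they share 608 runs of 50 bases (15.8% of those of Stat5a and 11.8% of those of Stat5b), whereas none of the other members shares a run with another gene. The sources used here do not say how shared fragments were split, so the split between both is uncertain. They lie side by side on chromosome 11 with Stat3, whose end overlaps the end of Stat5a on the opposite strand. Stat5a in GC2 cells was at 1.82, 2.08 and 2.22 FPKM in control and 1.87, 2.16 and 2.1 in knockdown libraries, a difference of 0.00 (adjusted p = 0.99). In spermatocytes it was at 1.71, 2.16 and 2.1 FPKM in control and 3.41, 3.19 and 3.61 in knock-out libraries, and it rose by 0.56 (SE 0.077, adjusted p = 0.00070). Stat5b in GC2 cells was at 4.73, 5.33 and 5.00 FPKM in control and 5.46, 5.77 and 5.54 in knockdown libraries. Every knockdown library was above every control, but the difference of 0.13 was not called (adjusted p = 0.18), and with chromosome centring, added after the data were seen, it was 0.33 and called (adjusted p = 0.012). In spermatocytes Stat5b was at 4.08, 4.49 and 4.34 FPKM in control and 12.62, 13.03 and 12.55 in knock-out libraries. It rose by 1.37 (SE 0.043, adjusted p = 5.9e-07), 2.96-fold in FPKM.

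Socs3 and Pim1 stand at the end of the pathway as its feedback inhibitor and as a target kinase that supports survival. Of the 10 genes, Socs3 alone holds the STAT motif TTCNNNGAA in the 250 bases before its RefSeq start. Its match is shown with 3 other target genes of the list and Stat2, which were chosen after their values were seen. These 3, Irf1, Icam1 and Bcl6, rose in spermatocytes by 1.60, 1.77 and 1.02. Fgl2, a listed target gene that also holds the motif, at position -36, is not shown. It fell there by 0.25 (limma, adjusted p = 0.0096). Windows are of the genes' own strand in GRCm38.p6, taken from RefSeq, and capitals mark the motif. The last window shows the core of the interferon response element, read on the opposite strand.
Socs3, chr11:117969496-117969536, minus strand: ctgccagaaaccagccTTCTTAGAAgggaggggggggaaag
Irf1, chr11:53769908-53769948, plus strand: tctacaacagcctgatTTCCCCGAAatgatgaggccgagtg
Icam1, chr9:21015882-21015922, plus strand: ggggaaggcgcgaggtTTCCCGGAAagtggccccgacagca
Bcl6, chr16:23981427-23981467, minus strand: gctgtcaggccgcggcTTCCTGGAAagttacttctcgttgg
Stat2, chr10:128270260-128270301, plus strand: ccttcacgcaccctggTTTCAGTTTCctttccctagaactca
The Socs3 match is at position -154 relative to the start. TTCNNNGAA, which reads the same on both strands, was found in 1 of 10 members, in 9 of 73 other pathway genes (12.3%), and in 8.13% of the 27025 genes given. The wider STAT palindrome, with 1 more base between its arms, was in none of the members and in 6.76% of all genes. The core of the interferon response element, searched on both strands, was in none of the members and in 3.46% of all genes. Matches of different motifs were counted separately, and a match is a description, not a site.

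Socs3 varied widely in GC2 control libraries, at 17.31, 19.80 and 6.49 FPKM, with 13.40, 15.37 and 15.21 in knockdown libraries. The groups overlapped, and control library 3 was the low one. The difference was 0.14 (SE 0.41, adjusted p = 0.84), and without control library 3 it was -0.32. In spermatocytes Socs3 was at 6.12, 4.86 and 5.09 FPKM in control and at 14.83, 15.98 and 14.69 in knock-out libraries. It rose by 1.35 (SE 0.082, adjusted p = 1.3e-05), 2.83-fold in FPKM.

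Pim1 was the one member called in the same direction in both contrasts besides Jak1. In GC2 cells it was at 21.93, 22.75 and 20.14 FPKM in control and at 34.04, 33.33 and 33.70 in knockdown libraries. It rose by 0.62 (SE 0.057, adjusted p = 0.0019), with no overlap. In spermatocytes it was at 13.83, 12.31 and 11.95 FPKM in control and at 25.11, 24.75 and 21.69 in knock-out libraries, and it rose by 0.86 (SE 0.076, adjusted p = 8.2e-05). The 8 genes higher in knock-out spermatocytes moved alongside the Sertoli and Leydig sums given above. Their part in these changes was not tested.

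The change in spermatocytes was set against that in GC2 cells in 1 fit over 8754 genes. It was called for 60.7% of them, with the spermatocyte change more positive for 38.1% and more negative for 22.7% (3333 and 1983 genes). This split depends on the scaling and was 2691 and 2585 with quantile normalization and 2657 and 2467 with median centring. Of the 9 members tested, 7 were called, all with the spermatocyte change more positive. Among these, Jak2 had the largest difference, 1.74 (SE 0.087, adjusted p = 1.1e-07), having fallen in GC2 cells and risen in spermatocytes. Il6st differed by 1.5 (SE 0.23, adjusted p = 0.00030) and Stat3 by 1.32 (SE 0.13, adjusted p = 1.1e-05). Stat5b differed by 1.24, Jak1 by 0.97 and Stat5a by 0.56. Socs3 differed by 1.21 (SE 0.44, adjusted p = 0.036), but leaving out 1 library ended this call for 10 of the 12 libraries (adjusted p 0.055 to 0.080). It held without GC2 control library 3 and without spermatocyte control library 1. Pim1, with a difference of 0.24 (adjusted p = 0.064), and Tyk2, with -0.13 (adjusted p = 0.22), were not called.

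The order of levels within a group shifted too. In control GC2 libraries Jak2 was highest, followed by Jak1 and Pim1, and the ranges of Il6st, Socs3 and Stat3 overlapped with their neighbours in the order. In knockdown libraries Jak1 and Pim1 came before Jak2. In control spermatocytes the order began with Jak1, Pim1, Tyk2 and Jak2, and in knock-out with Jak1, Pim1, Socs3 and Stat5b. Stat5a and Tyk2 overlapped at the low end in GC2 cells, and Osmr was lowest in both spermatocyte groups.

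Ratios of paired genes within a library do not depend on library scaling. For 6 ratios in both kinds of sample, 12 comparisons were made, and 11 had an exact two-sided permutation p of 0.1, the smallest that 3 libraries against 3 allow (adjusted p = 0.109). The ratio of Jak2 to Jak1 was 1.80 ± 0.281 in GC2 control and 0.678 ± 0.0255 in knockdown libraries (SD, n = 3), and in spermatocytes it was 0.319 ± 0.0023 and 0.219 ± 0.0145. The ratio of Stat5a to Stat5b was 0.461 ± 0.0366 in control and 0.268 ± 0.0215 in knock-out spermatocytes. In GC2 cells it was also lower, at 0.406 ± 0.0327 in control and 0.365 ± 0.0199 in knockdown libraries. The ratio of Osmr to Il6st was 0.700 ± 0.0162 in GC2 control and 0.427 ± 0.138 in knockdown libraries, with knockdown library 3 at 0.587 against 0.341 and 0.355. In spermatocytes the same ratio was higher in knock-out, at 0.0377 ± 0.0070 in control and 0.0544 ± 0.0036 in knock-out libraries, with Osmr near the floor. The ratio of Socs3 to Stat3 was 1.08 ± 0.121 in control and 1.49 ± 0.0793 in knock-out spermatocytes. In GC2 cells it overlapped, at 1.06 ± 0.564 and 1.47 ± 0.0986 (exact permutation p = 0.4). Of 2 ratios added after the data were seen, that of Stat5b to Stat3 was 0.869 ± 0.0547 in control and 1.25 ± 0.0367 in knock-out spermatocytes. It was also higher in GC2 knockdown libraries, at 0.373 ± 0.0792 in control and 0.560 ± 0.0136 in knockdown. The other, of Tyk2 to Jak1, was 0.390 ± 0.0125 in control and 0.137 ± 0.0052 in knock-out spermatocytes. In GC2 cells it went the same way, from 0.0747 ± 0.0038 in control to 0.0582 ± 0.0066 in knockdown libraries.

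The rest of the pathway was taken from a list of 100 genes. In GC2 cells 88 had a row and 55 passed the filter. Of these 5 were higher and 18 lower, where 10.7% and 13.9% of all rows were, with a median of -0.21 against -0.04 for all rows. In spermatocytes 65 passed, 46 higher and 13 lower, where 40.9% and 38.5% of all rows were, with a median of 0.70 against 0.047. In each kind 4 tested genes reached 1 FPKM in 1 group only, so that their difference was built into the filter. In GC2 cells these were Usp18, Il6, Lbp and the row of Il2rg, all through the control group, and in spermatocytes Il15ra, Irs1 and Lbp through knock-out and Il31 through control.

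Of 7 ligands tested in GC2 cells 0 were higher and 1 lower (10.7% and 13.9% of all rows). Of 4 in spermatocytes 1 was higher and 2 lower (40.9% and 38.5% of all rows, median -0.42). The higher row, of Epo, also names Gnb2, and a lower row, of Cntf, also names Zfp91. Neither value can be given to the ligand alone. Il31, the other lower gene, passed the filter only through the control group. Of 10 receptors tested in GC2 cells 0 were higher and 6 lower (13.9% of all rows lower), and of 15 in spermatocytes 12 were higher and 2 lower (40.9% of all rows higher). Il4ra, the interleukin-4 receptor chain, fell by 0.81 in GC2 cells, from 9.30 to 4.87 FPKM. Lifr, the receptor of leukaemia inhibitory factor, which also works with Il6st, was chosen after its values were seen. It was at 4.76, 4.09 and 4.66 FPKM in control GC2 libraries and at 1.91, 1.10 and 1.99 in knockdown libraries and fell by 1.06 (adjusted p = 0.0080). In spermatocytes Lifr rose by 0.90, from 3.30 to 7.02 FPKM. Il6, a ligand of this receptor family, was at 1.76 FPKM in control GC2 libraries and 0.25 in knockdown libraries, and passed the filter through the control group.

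Other JAK and STAT genes were 0 higher and 2 lower of 3 tested in GC2 cells (10.7% and 13.9% of all rows). In spermatocytes 4 of 4 were higher (40.9% of all rows). Stat2, a transcription factor of interferon signalling, fell by 1.40 in GC2 cells, from 11.5 ± 0.136 to 3.75 ± 0.236 FPKM. The row of Jak3 in spermatocytes also names Insl3, the Leydig cell hormone gene, and rose from 3.10 to 82.5 FPKM, a value that cannot be given to Jak3. Of 13 inhibitors and phosphatases tested in GC2 cells 1 was higher and 2 lower (10.7% and 13.9% of all rows). Of 15 in spermatocytes 7 were higher and 5 lower (40.9% and 38.5% of all rows). Usp18, which blocks the interferon receptor, averaged 19.5 ± 2.40 FPKM (SD, n = 3) over control GC2 libraries against 0.27 ± 0.0794 over knockdown ones, and it passed the filter only through the control group. Sh2b3, an adaptor that restrains JAK2, fell by 1.87 in spermatocytes, from 17.5 to 4.08 FPKM, whereas the phosphatase gene Ptpn11 rose by 1.25. Cish and Socs2, feedback inhibitors induced through STAT5 and chosen after their values were seen, rose in spermatocytes by 1.40 and 1.32. Socs4 also rose there, by 0.68, whereas Socs7 fell by 1.04. Of the protein inhibitors of activated STAT, Pias1, Pias2 and Pias4 fell by 0.70, 1.57 and 1.12, and Pias3 rose by 0.70. Socs1 (0.07), Socs5 (0.02) and Socs6 (0.62) were not called.

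Of 27 adaptors and target genes tested in spermatocytes 22 were higher and 4 lower (40.9% and 38.5% of all rows). Of 22 in GC2 cells 4 were higher and 7 lower (10.7% and 13.9% of all rows, median -0.27). The values of single genes follow, with the spermatocytes first. Fos was at 116.66, 113.89 and 116.42 FPKM in control and 421.95, 426.00 and 423.14 in knock-out libraries and rose by 1.86. Irs2, an adaptor of insulin and cytokine receptors, rose by 2.02, from 6.71 to 30.3 FPKM. Mcl1, a survival protein, rose by 0.91. In GC2 cells the cyclin gene Ccnd1 rose by 1.19, from 20.9 ± 0.380 to 49.1 ± 2.73 FPKM, and Timp1 and Hif1a fell by 0.89 and 0.62. In spermatocytes Ccnd1 fell by 0.32. Junb is listed at 0 in 1 control and 1 knockdown GC2 library and at 13.57 to 26.82 FPKM in the others.

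**Figure D4:**
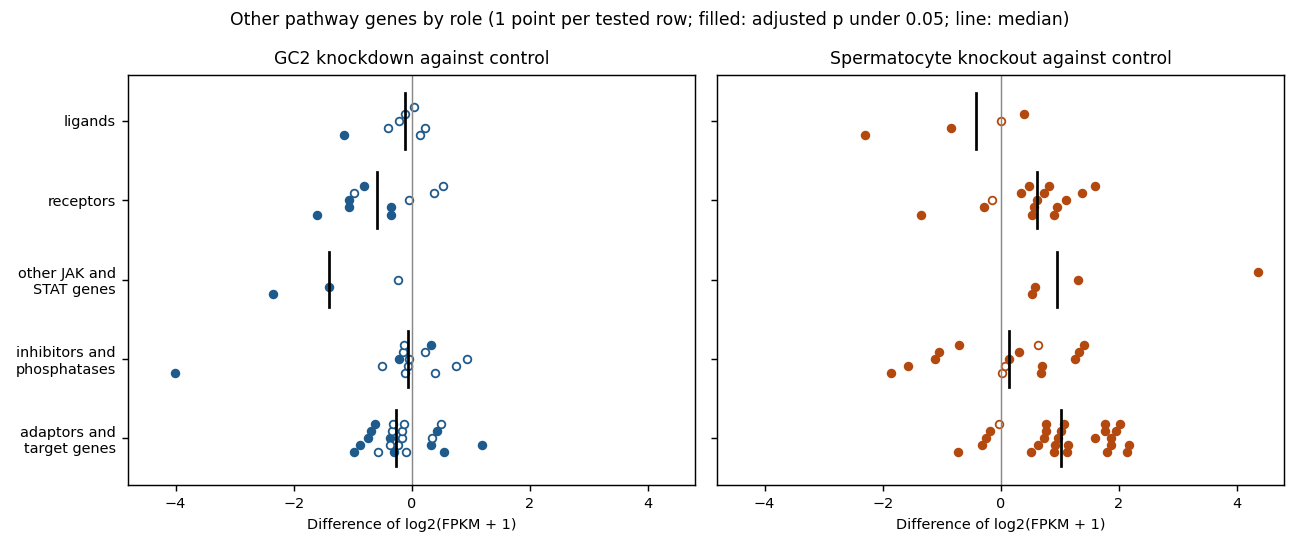
Difference of log2(FPKM + 1), depleted minus control, for other pathway genes by role, 1 point per tested row, filled where the adjusted p was under 0.05, with a line at the median. In GC2 cells receptor points lie mostly to the left of 0, and in spermatocytes adaptor and target points lie mostly to the right.

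Across the 12 libraries, with values centred within each kind of sample, Jak1 and Stat5b varied most alike of the 36 pairs of the 9 tested genes, with a Pearson's r of 0.98 as a description only. The points share the 4 groups, 3 libraries each. Jak2 had an r of 0.82 with Il6st and with Stat3, and of -0.02 with Pim1. Tyk2 had a negative r with each of the other 8. Among 7970 genes measured in both kinds of sample, Gca (r 0.996) and Dync1i1 (r 0.995) were most like Jak1, and Acadsb (r 0.992) and Scd1 (r 0.990) most like Jak2. Scd1, a fatty acid desaturase gene, fell by 1.52 in GC2 cells and rose by 1.11 in spermatocytes, as Jak2 did by 1.04 and 0.70. The shared directions follow from choosing Scd1 by its likeness to Jak2 in these libraries. Its spermatocyte controls were at 0.68, 0.59 and 0.78 FPKM, so it passed the filter there only through the knock-out group. Aldh2 and Bcr were most like Stat5b, both with an r of 0.997, and Sgta was most like Tyk2 with a lower r of 0.916.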

How the data were processed

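The files deposited by the authors give FPKM for each gene row, 1 file a library, already scaled to transcript length and mapped fragments. Per the submitters' processing notes, HISAT2 2.1.0 and DESeq were used, and GRCm38 and mm10 are named. Quantifier, annotation release and filters: not given in the sources used here. Depth is not stated. From steps between low values, spermatocyte libraries held an estimated 11.1 M to 15.7 M fragments, and the steps were ambiguous in GC2. The unit being FPKM, no count test was run, and limma 3.58.1 (R 4.3.3) with a variance trend was applied to log2(FPKM + 1), after tests on simulated data. Rows needed 1 FPKM in 3 of 6 libraries, 10791 in GC2 and 15957 in spermatocytes. The difference of both contrasts was tested in 1 fit of all 12 libraries. Ratios used exact permutation tests. The alternatives were other pseudocounts, filters, scalings, the replicate block, 1 fit of all libraries and leaving out each library. Named genes are all members and Phb, the 2 genes most like each tested member, per contrast up to 10 called pathway genes with the smallest adjusted p and up to 5 of the highest mean, and the most abundant marker per list. Members and lists were chosen with earlier results of these data known. Summaries used Python 3.11.15, pandas 2.3.3, numpy 2.4.6, scipy 1.17.1 and matplotlib 3.10.9.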

Additional observations from a re-analysis of the deposited data

Results flagged for a closer look

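In 7 of the 9 tested genes the change in spermatocytes differed from that in GC2 cells by a test of the difference itself (limma, adjusted p under 0.05). Of all 8754 genes, 60.7% were called, 38.1% with the spermatocyte change more positive. The Socs3 call was lost when most single libraries were left out (adjusted p up to 0.080). On the log2 scale, spermatocytes minus GC2 cells, the difference was 1.74 for Jak2, 1.5 for Il6st, 1.32 for Stat3, 1.24 for Stat5b, 1.21 for Socs3, 0.97 for Jak1 and 0.56 for Stat5a. Jak2 was lower in knockdown GC2 cells and higher in knock-out spermatocytes, and every library of both contrasts showed its direction.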

How the results depend on the processing

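The 8 genes called higher in spermatocytes stayed called under every alternative run. Of the 162 alternative values of single genes in spermatocytes 158 kept their direction and side of the threshold, and of 180 in GC2 cells 168 did. Tyk2 in spermatocytes was reversed by median centring (0.0059) and by chromosome centring (0.043, chosen after seeing the data), as was Phb by chromosome centring (0.068), and the count of members lower there was 0 under quantile normalization, median centring, removal of mitochondrial rows and chromosome centring. Quantile normalization moved the median of all spermatocyte rows to 0.28 and the split to 8218 higher and 5041 lower (as reported 6533 and 6139), and in GC2 to 1405 and 1215 (as reported 1153 and 1496), with 1231 and 975 under chromosome centring. In 1 fit of all 12 libraries 4 members were lower in GC2 (Stat3, adjusted p = 0.0070, and Il6st, adjusted p = 0.035, joined). That fit takes the variance from both kinds of sample. The GC2 differences of Stat3 and Il6st stayed the same, with an SE of 0.091 and 0.16 against 0.12 and 0.22 as reported. In the same fit 8 pathway genes were higher in GC2, and 4048 rows were lower in spermatocytes. Without a filter on low values 3 pathway genes were higher in GC2, and Osmr was called in spermatocytes (0.39, adjusted p = 0.00070). With quantile normalization and with median centring 1 member, Tyk2, had a lower change in spermatocytes than in GC2. The cause of these shifts was not tested.

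Leaving out 1 library gave 1 to 2 members higher in GC2, 2 to 4 pathway genes higher there and 744 to 962 rows higher there, with 750 without knockdown library 2 and 744 without knockdown library 3. The Socs3 difference of the contrasts, lost without 10 of the 12 libraries, had adjusted p-values of 7.9e-06 to 0.080, and also missed the threshold with median centring (0.064) and the replicate block (0.056). The Pim1 difference passed it with quantile normalization (0.033), with the block (0.037) and without GC2 control library 3, spermatocyte control library 1 or knock-out library 3 (0.036, 0.026 and 0.020). Same-numbered libraries had correlated deviations of 0.124, 0.078 and 0.061 in GC2 and 0.0074, -0.054 and 0.0074 in spermatocytes. Libraries of other numbers had -0.074 to -0.00087 in GC2 and -0.042 to 0.036 in spermatocytes. The numbers were not taken to pair the samples, and whether they do in GC2 was not tested. With the replicate block 853 rows were higher and 1132 lower in GC2, 6427 and 6055 in spermatocytes, and 1 member, Pim1, was higher in GC2, with Jak1 at an adjusted p of 0.060.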
